A study of Mus musculus with 20 samples.

Results

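Selenium supply genes and the main selenoproteins were followed as a set of 10 genes in the arcuate nucleus of the mouse hypothalamus, out of 22048 genes in the count tables. The 10 were chosen by symbol from the pathway, with earlier results of these data known: Sepp1 (the older name of Selenop), Lrp8, Scly, Sephs2, Secisbp2, Gpx1, Gpx3, Gpx4, Txnrd1 and Txnrd2. Male C57BL6/J mice, 10 weeks old by the labels, were given corticosterone (Cort, 75 μg/ml in 1% ethanol) or vehicle (1% ethanol alone) in the drinking water. The study describes acclimatization and a baseline period before treatment, so the mice may have been older when treatment began. One dataset covers 2 days of treatment and the other covers 4 weeks, after which the mice of both groups were fasted for 16 hours and refed for 24 hours while treatment went on. Each dataset held 5 vehicle and 5 Cort samples, and each sample was an arcuate nucleus collected by laser capture microdissection whose RNA was amplified before sequencing. The labels call these separate samples, so p-values measure the spread between these samples. The datasets also differ in age at collection, section thickness, slides, laser system and sequencer, so duration of treatment cannot be told apart from these.

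Selenium enters proteins as selenocysteine, which is placed at a TGA codon that would otherwise stop translation. Sephs2 makes the selenium donor for selenocysteine and is itself a selenoprotein, and Secisbp2 binds the element in a selenoprotein message that lets the codon be read through. Selenoprotein P, the product of Sepp1, is secreted and carries selenium between tissues, and LRP8 (apolipoprotein E receptor 2) takes it up in the brain. Scly, selenocysteine lyase, frees the selenium of degraded selenoproteins for reuse. The glutathione peroxidases Gpx1, Gpx3 and Gpx4 and the thioredoxin reductases Txnrd1 and Txnrd2 use selenocysteine for antioxidant reactions.

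The selenocysteine codons show which members are selenoproteins and how Sepp1 stands apart from the rest. In the GENCODE vM21 annotation of GRCm38 the Sepp1 coding sequence of 380 codons holds 10 in-frame TGA codons. Sephs2, Gpx1, Gpx3, Gpx4, Txnrd1 and Txnrd2 hold 1 each, and Scly, Lrp8 and Secisbp2 hold 0. Each sequence below is written 5′ to 3′ on the coding strand, with the selenocysteine codon in capitals and up to 15 coding bases on each side. The first and the last of the 10 in Sepp1 lie at chr15:3274848-3274850 (codon 59) and chr15:3279696-3279698 (codon 377) on the plus strand. The bases before the last one include selenocysteine codon 9 of the 10 (codon 375, chr15:3279690-3279692), left in lower case.
Sepp1, first: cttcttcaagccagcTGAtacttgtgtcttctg
Sepp1, last: accaggaagtgaaaaTGAcattcaaac
The 3 glutathione peroxidases carry it at chr9:108339451-108339453 in Gpx1 (codon 47), chr11:54907256-54907258 in Gpx3 (codon 73) and chr10:80054737-80054739 in Gpx4 (codon 129), all on the plus strand.
Gpx1: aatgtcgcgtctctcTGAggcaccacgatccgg
Gpx3: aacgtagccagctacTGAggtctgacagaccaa
Gpx4: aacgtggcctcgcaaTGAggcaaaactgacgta
In the thioredoxin reductases the codon is the last but one, at chr10:82896037-82896039 in Txnrd1 (codon 612 of 613) and chr16:18477772-18477774 in Txnrd2 (codon 526 of 527), on the plus strand. Sephs2, on the minus strand of chromosome 7, has it at codon 63 of 452 (chr7:127273731-127273733).
Txnrd1: ctccagtctggctgcTGAggt
Txnrd2: actgtgactggttgcTGAggc
Sephs2: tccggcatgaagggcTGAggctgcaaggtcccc

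Values are given as CPM, a gene's share of a sample's counts scaled to one fixed total, with library sizes adjusted by TMM across the 10 samples of each dataset. Samples are named by the barcode of their column (C01 to C10 in each dataset), since the columns do not carry the replicate numbers of the labels. Total counts per sample were 2487063 to 5748223 at 2 days and 1065776 to 5196364 at 4 weeks, and the floor used here, 3 counts, which takes in counting error alone, corresponded to 0.522 to 2.81 CPM. The study left out vehicle samples C07 and C09 and Cort sample C08 at 2 days, and vehicle samples C01 and C05 and Cort sample C06 at 4 weeks, as outliers of its principal component analysis. The remaining 7 samples per dataset (3 vehicle and 4 Cort) were compared by edgeR's quasi-likelihood test with Benjamini-Hochberg adjustment over all genes tested (Padj), with Padj below 0.1 as the threshold, and each result was repeated with all 10. Arcuate nucleus markers were present in the samples: the summed CPM of 8 arcuate neuron genes, Agrp, Npy and Pomc among them, ranged from 1286 to 3203 at 2 days and from 337 to 1410 at 4 weeks. A list of 5 ventromedial nucleus genes summed to 18.4 to 81.1 CPM and 1.24 to 89.8 CPM. As these are bulk samples, a lower value can mean fewer cells of a type or less RNA per cell, and the values do not tell these apart.

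Of the 10 genes, only Sepp1 passed the threshold by edgeR at 2 days, higher with Cort in the 7 kept samples, and at 4 weeks none passed. This 2 day call was lost with all 10 samples and held in 1 of 7 fits that left out 1 kept sample. All 10 genes passed edgeR's filter on low counts in both datasets with the 7 samples. At 2 days 1 of the 10 was called, against 8 of 12309 genes tested (0.065%), and at 4 weeks 0 of the 10 were called, against 5 of 11211 (0.0446%). Before adjustment, 2 of the 10 had p below 0.05 in each dataset (Sepp1 and Lrp8 at 2 days, Sepp1 and Scly at 4 weeks), where the share of all genes was 5.97% and 4.91%. The 4 week p of Scly is not read against that share, because Scly passed the filter there only through its vehicle samples. In the fits with DESeq2 1 of 10 was called at 2 days (Sepp1), beside 52 of 16068 genes fitted (0.324%). At 4 weeks DESeq2 called 1 of 10 (Scly) and 67 of 15430 genes fitted (0.434%). This call of Scly is not read against that share either. The median log2 fold change of the 10 was 0.31 at 2 days, with 7 above 0, and that of all genes tested was 0.02. At 4 weeks the median was 0.10, with 6 above 0, beside 0.04 over all genes.

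**Figure D1:**
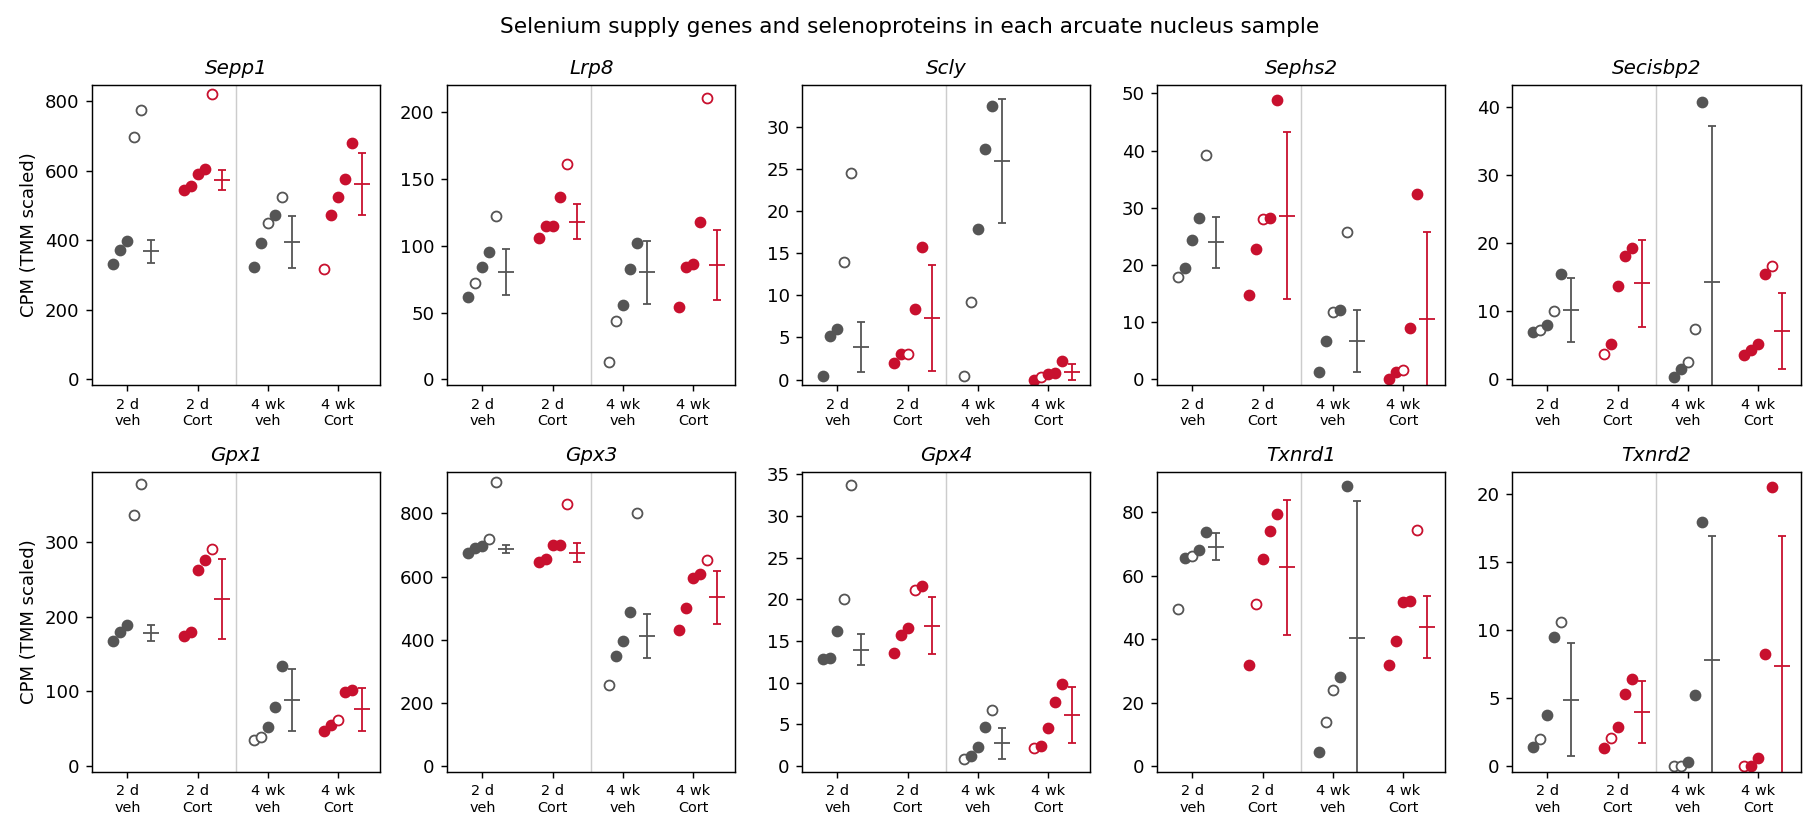
CPM (TMM scaled, linear axes) of the 10 genes in each arcuate nucleus sample, with vehicle in grey and Cort in red, at 2 days on the left and 4 weeks on the right of each panel. Filled points are the 7 samples of a dataset that the study kept, open points are the 3 left out, and bars give the mean ± SD of the kept samples (n = 3 vehicle, n = 4 Cort), cut at the lower edge of the axis. At 2 days the kept Cort samples of Sepp1, from 544 to 605 CPM, lie above the kept vehicle samples, and the 3 open points lie above both.

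Sepp1, the selenium carrier, was at 399, 333 and 373 CPM in the kept 2 day vehicle samples C02, C04 and C05. In the kept Cort samples C01, C03, C06 and C10 it was at 590.3, 556, 544 and 605 CPM. The groups did not overlap, with every Cort sample above every vehicle sample. The means were 368 ± 33.1 CPM (SD, n = 3) and 574 ± 28.5 CPM (SD, n = 4), a fitted fold of 1.57 (log2 0.65 ± 0.12 SE, Padj = 0.055 by edgeR's quasi-likelihood test). On the same 7 samples Padj was 0.00018 by DESeq2. By edgeR it was 0.071 with upper quartile scaling, 0.021 without a filter on low counts and 0.039 with at least 10 counts in every sample. An exact 2-sided permutation test of log2 CPM gave p = 0.057, the smallest that 3 against 4 samples allow. Cort and vehicle groups did not overlap, in either direction, in 6.63% of all genes tested at 2 days, and in 2 of the 10 here, Sepp1 and Lrp8.

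The 3 samples left out at 2 days held more Sepp1 than any kept sample: 776 and 698 CPM in vehicle samples C07 and C09, and 822 CPM in Cort sample C08. With them the groups overlapped, and the means were 516 ± 205 CPM (vehicle) and 624 ± 114 CPM (Cort; SD, n = 5 each). The exact permutation test of 5 against 5 samples gave p = 0.23. The log2 fold change over all 10 samples was 0.28 ± 0.20 (SE, Padj = 0.98 by edgeR), and limma voom with sample quality weights, which gives discordant samples less weight, put it at 0.56 ± 0.16 (Padj = 0.61). Within the 7 samples, edgeR's log2 fold change stayed between 0.58 and 0.71 when any 1 sample was left out. Padj was 0.14 to 0.38 without C01, C02, C03, C04, C05 or C10, and 0.050 without C06, so that the call held in 1 of 7 such fits. 

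At 4 weeks Sepp1 was again higher on average with Cort, but the groups overlapped. Kept vehicle samples C02, C03 and C04 had 391, 322 and 472 CPM, and kept Cort samples C07, C08, C09 and C10 had 472, 575, 681 and 524 CPM. Only Cort sample C07 lay within the vehicle range, just under the highest vehicle sample. The means were 395 ± 75.1 CPM (SD, n = 3) and 563 ± 89.1 CPM (SD, n = 4), and the log2 fold change of 0.50 ± 0.23 (SE) had an unadjusted p of 0.048 and Padj = 0.99 by edgeR. The samples left out ran the other way, with 526 and 449.9 CPM in vehicle samples C01 and C05 and 318 CPM in Cort sample C06, the lowest of the 10. Over all 10 the log2 fold change was 0.23 ± 0.25 (SE, Padj = 0.99 by edgeR). The test of the difference between the 2 datasets (interaction of dataset and treatment, 14 samples) gave a log2 value of -0.15 ± 0.25 (SE, Padj = 0.98 by edgeR), within 1 SE of 0.

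Summed markers of some cell types moved with Sepp1 at 2 days. The list of 8 oligodendrocyte genes summed to 692 to 766 CPM in the kept vehicle samples and 784 to 1278 CPM in the kept Cort samples, with 1238 to 1826 CPM in the 3 samples left out. Of this list 1 gene of 8 tested was called higher and 0 were called lower, beside 0.065% of all genes called. The median log2 fold change of the list was 1.01. The 8 arcuate neuron genes summed to 1286 to 1724 CPM (vehicle), 1834 to 2443 CPM (Cort) and 2240 to 3203 CPM (left out), and 1 of the 7 tested was called higher. In both lists, as in Sepp1, kept Cort samples lay above kept vehicle samples, and the part of either cell type in the Sepp1 result was not tested. Pan-neuronal sums (6 genes) overlapped between the kept groups, at 3358 to 3755 CPM with vehicle and 3147 to 3813 CPM with Cort. Astrocyte sums (8 genes) overlapped too, at 4656 to 5038 CPM and 3929 to 5805 CPM, as did tanycyte sums (6 genes) at 88.3 to 161 CPM and 74.4 to 144 CPM. In the samples left out the tanycyte sum was 178 to 260.0 CPM, above every kept sample.

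**Figure D2:**
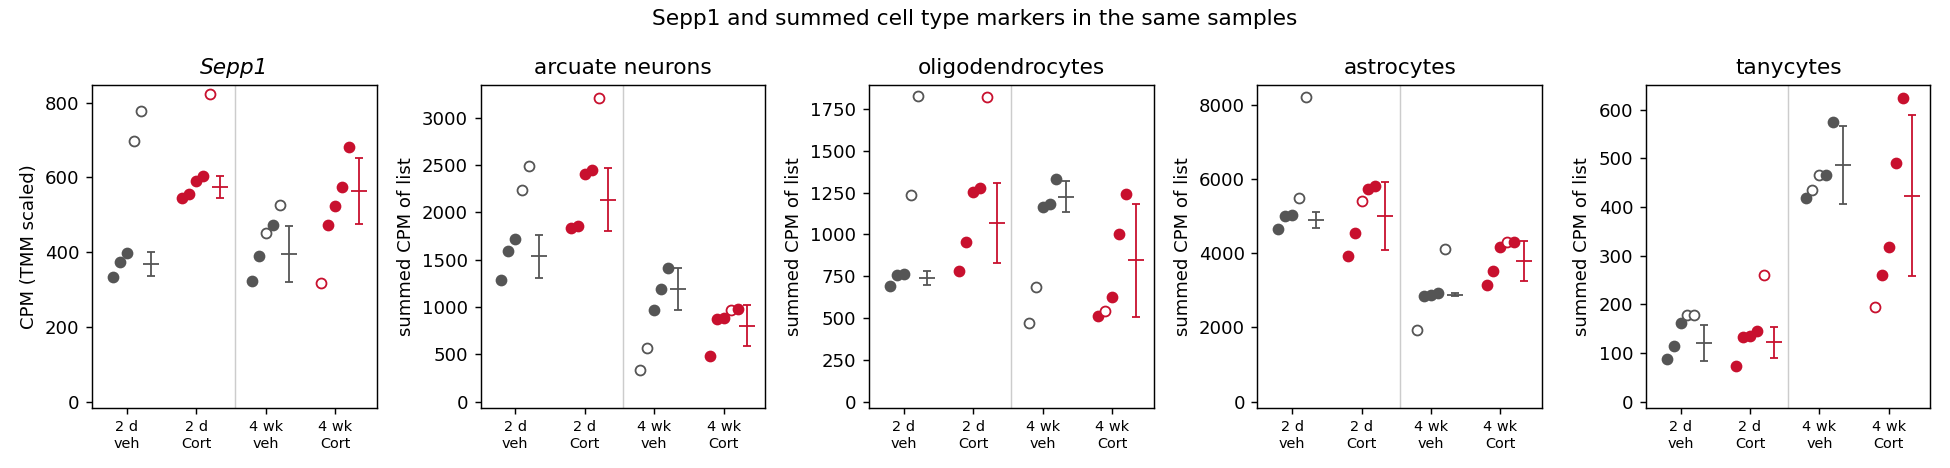
CPM of Sepp1 and summed CPM of 4 cell type marker lists in each sample, drawn as in the plot of the 10 genes (filled points kept, open points left out, bars mean ± SD of the kept samples). At 2 days the 3 open points are the highest of the 10 in the Sepp1 panel and in the tanycyte panel, and the oligodendrocyte sum of the kept samples is 692 to 766 CPM with vehicle and 784 to 1278 CPM with Cort.

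At 4 weeks other lists separated the kept groups. Astrocyte sums were 2840 to 2919 CPM with vehicle and 3139 to 4309 CPM with Cort, with 0 of 8 genes called, and 6 pan-neuronal genes summed to 2650 to 2872 CPM and 2954 to 3361 CPM, also with 0 called. The vehicle samples left out, C01 and C05, had astrocyte sums of 1927 and 4108 CPM and pan-neuronal sums of 2455 and 3302 CPM. C05 thus lay within the Cort range in both lists, and with all 10 samples the groups overlapped. Oligodendrocyte sums overlapped (1165 to 1333 CPM and 512 to 1242 CPM). Astrocytes and neurons are both cell types in which selenoproteins are made, and the part of these shifts in the values of the 10 genes at 4 weeks was not tested.

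Some reads of Sepp1 could belong to another gene, because 15.4% of its exon bases also lie in exons of Ccdc152 and the library kit does not mark strand. Ccdc152 had 0 to 6 counts in every sample of both datasets, against at least 573 for Sepp1.

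Lrp8, the brain receptor for selenoprotein P and for reelin, was at 61.4, 95.5 and 84.2 CPM in the kept 2 day vehicle samples C02, C04 and C05. Kept Cort samples C01, C03, C06 and C10 had 115, 106, 115 and 137 CPM. All 4 Cort samples were above the 3 vehicle samples, with means of 118 ± 13.2 CPM (SD, n = 4) and 80.4 ± 17.3 CPM (SD, n = 3). The log2 fold change was 0.56 ± 0.21 (SE), with an unadjusted p of 0.015 and Padj = 0.72 by edgeR, so Lrp8 did not pass the threshold. Vehicle samples left out had 72.5 CPM (C07) and 123 CPM (C09), and the Cort sample left out had 161 CPM (C08). With all 10 samples the log2 fold change was 0.55 ± 0.21 (SE, Padj = 0.92 by edgeR), as large as with 7. The exact permutation test of 5 against 5 gave p = 0.032, where 0.0079 is the smallest possible. This p was not adjusted for the number of genes and datasets tested. 

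In the 4 week dataset the kept groups of Lrp8 lay over each other, with 102, 82.4 and 55.5 CPM in vehicle samples C02, C03 and C04 and 53.8, 84.5, 86.6 and 118 CPM in Cort samples C07 to C10. The fitted difference was, on the log2 scale, 0.08 ± 0.46 (SE, Padj = 0.99 by edgeR). The samples left out were the 3 most extreme: vehicle samples C01 and C05 had 12.9 and 44.0 CPM, below all others, and Cort sample C06 had 211 CPM, above all others. They raised the log2 fold change to 0.88 ± 0.54 (SE, Padj = 0.99 by edgeR). The interaction of dataset and treatment was -0.48 ± 0.46 (log2, SE, Padj = 0.92 by edgeR) over 14 samples and took the opposite sign, 0.33 ± 0.56, over all 20.

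Scly, which recycles selenium from selenocysteine, showed the widest gap of the 10 genes, at 4 weeks and at low counts. Kept vehicle samples C02, C03 and C04 had 96, 68 and 40 counts (32.5, 27.3 and 17.9 CPM), and kept Cort samples C07, C08, C09 and C10 had 4, 9, 0 and 2 counts (0.825, 2.14, 0 and 0.615 CPM). Every kept Cort sample was below every kept vehicle sample, and groups without overlap in either direction were found in 6.53% of all genes tested at 4 weeks, here in 1 of the 10. Of the kept Cort samples, 2 of the 4 were at or under 3 counts. Scly passed edgeR's filter only through the vehicle group, so its lack of overlap is not read against the share of all genes. The fitted values and the permutation p-values below describe the samples and do not add support for a difference. The log2 fold change was -4.75 ± 1.28 (SE) with an unadjusted p of 0.0020, and Padj was 0.89 by edgeR, 0.45 by edgeR without a filter on low counts and 0.0096 by DESeq2. The exact permutation test gave p = 0.057, again the smallest that 3 against 4 samples allow. Among the 3 left-out samples, 10 counts were found in vehicle sample C01 (9.18 CPM), whereas vehicle sample C05 and Cort sample C06 had 1 count each (0.419 and 0.315 CPM). Sample C05 thus lay within the Cort range, and over 5 against 5 samples the exact permutation p was 0.032. With all 10 samples Scly did not pass edgeR's filter and had no edgeR value. 

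In the 2 day dataset Scly showed no such gap. Kept vehicle samples C02, C04 and C05 had 5.97, 5.17 and 0.407 CPM and kept Cort samples C01, C03, C06 and C10 had 15.7, 3.03, 8.39 and 1.99 CPM, from 2 to 92 counts. Left out were 13.97 and 24.5 CPM (vehicle samples C07 and C09) and 3.07 CPM (Cort sample C08). Its log2 fold change was 0.95 ± 0.90 (SE, Padj = 0.94 by edgeR) and turned to -0.60 ± 0.77 with all 10 samples. The interaction of dataset and treatment was the widest of the 10 genes, at -5.68 ± 1.61 (log2, SE) with an unadjusted p of 0.0020. It did not pass adjustment by edgeR (Padj = 0.71), where 2 of 12777 genes did (0.0157%). Of the 10 genes, 1 had an unadjusted p below 0.05, Scly itself, where 6.49% of all genes did. The interaction of Scly passed by DESeq2 (Padj = 0.027), which called 67 of 16627 genes fitted (0.403%). As it rests on the same low 4 week counts, it is not read against these shares. 

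**Figure D3:**
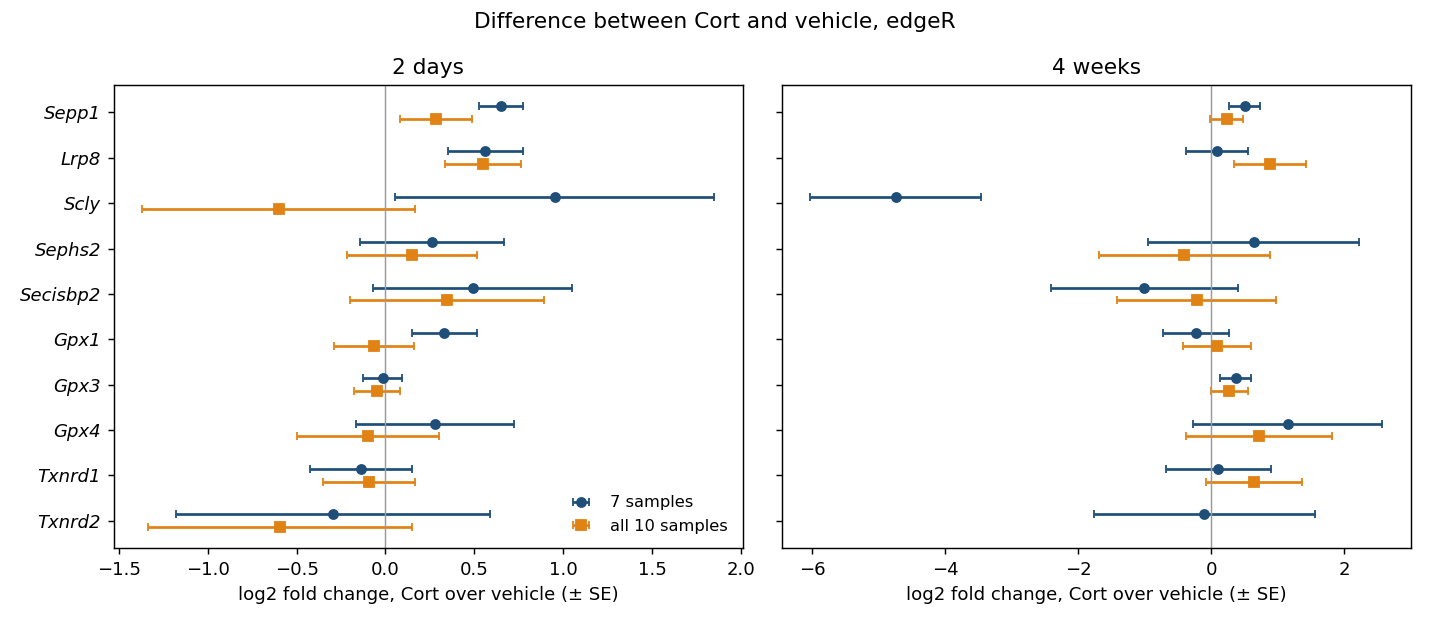
Log2 fold change of Cort over vehicle (± SE) of the 10 genes by edgeR at 2 days (left) and 4 weeks (right, wider axis), from the 7 samples kept (circles) and from all 10 samples (squares). Scly and Txnrd2 have no square at 4 weeks because they did not pass the filter with all 10 samples. Sepp1 at 2 days moves from 0.65 to 0.28 and Lrp8 from 0.56 to 0.55.

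The genes that place selenium into proteins, Sephs2 and Secisbp2, had low counts at 4 weeks and 13 to 194 counts at 2 days. Sephs2 was at 24.4, 19.4 and 28.3 CPM in the 2 day vehicle samples C02, C04 and C05, and at 28.2, 48.8, 22.9 and 14.7 CPM in Cort samples C01, C03, C06 and C10. Samples left out had 39.3 and 18.0 CPM (C07 and C09) and 28.1 CPM (C08). The groups overlapped, and the log2 fold change was 0.26 ± 0.40 (SE, Padj = 0.96 by edgeR). At 4 weeks it was uneven, with 6.76, 12.1 and 1.34 CPM in vehicle samples C02, C03 and C04, and 1.24, 0, 32.5 and 8.91 CPM in Cort samples C07 to C10. Left out were 25.7 and 11.7 CPM (C01 and C05) and 1.57 CPM (C06), and the highest and lowest samples of the dataset were both Cort samples. On the log2 scale the difference was 0.64 ± 1.59 (SE, Padj = 0.99 by edgeR), an error that spans both directions. Reads of Sephs2 are also uncertain because 36.4% of its exon bases lie in exons of another annotated gene, Gm44729.

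Secisbp2 was at 6.97, 15.5 and 7.93 CPM in 2 day vehicle samples C02, C04 and C05, and at 19.3, 18.2, 13.8 and 5.17 CPM in Cort samples C01, C03, C06 and C10. The left-out samples C07, C09 and C08 had 7.29, 9.98 and 3.69 CPM. Cort samples included both the highest and the lowest value of the dataset, and the log2 fold change was 0.49 ± 0.56 (SE, Padj = 0.95 by edgeR). At 4 weeks vehicle samples C02, C03 and C04 had 0.338, 1.61 and 40.7 CPM, Cort samples C07 to C10 had 4.33, 3.57, 15.5 and 5.23 CPM, and samples C01, C05 and C06 had 7.34, 2.52 and 16.7 CPM. Vehicle sample C04, with 91 counts, stood far above the rest of its group. The mean of the kept vehicle samples (14.2 ± 23.0 CPM, SD, n = 3) therefore rested on C04, and the log2 fold change of -1.01 ± 1.41 (SE, Padj = 0.99 by edgeR) became 2.83 without it. 

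Gpx1, the cytosolic glutathione peroxidase, is among the first selenoprotein messages to fall when selenium is short. It was at 188, 180.0 and 167 CPM in the 2 day vehicle samples C02, C04 and C05, at 174, 263, 275 and 180.2 CPM in Cort samples C01, C03, C06 and C10, and at 336, 377 and 291 CPM in C07, C09 and C08. As with Sepp1, the 3 samples left out were the highest of the 10. Cort samples C03 and C06 lay above all kept vehicle samples whereas C01 and C10 lay among them. The log2 fold change was 0.33 ± 0.18 (SE, Padj = 0.86 by edgeR) and -0.07 ± 0.22 with all 10 samples. At 4 weeks vehicle samples C02, C03 and C04 had 52.4, 135 and 78.8 CPM and Cort samples C07 to C10 had 99.2, 47.6, 102 and 55.6 CPM. The samples left out had 39.5, 35.2 and 61.4 CPM (C01, C05 and C06). Both groups covered much the same range, and the log2 fold change was -0.23 ± 0.50 (SE, Padj = 0.99 by edgeR).

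Gpx3, the secreted peroxidase, was the steadiest of the 10 genes at 2 days. Kept vehicle samples C02, C04 and C05 had 691, 697 and 673 CPM, kept Cort samples C01, C03, C06 and C10 had 654, 701, 646 and 701 CPM, and C07, C09 and C08 had 718, 899.8 and 829 CPM. The coefficient of biological variation that edgeR fitted was 0.132, lower than in all but 0.252% of genes tested, where the median was 0.351. With this precision the log2 fold change was -0.01 ± 0.11 (SE, Padj = 0.99 by edgeR), the smallest difference of the 10. At 4 weeks vehicle samples C02, C03 and C04 had 487, 349 and 397 CPM and Cort samples C07 to C10 had 597, 607, 431 and 502 CPM, so that 3 of 4 Cort samples were above the vehicle range. The samples left out spread further, with 255 and 800.4 CPM in vehicle samples C01 and C05 and 654 CPM in Cort sample C06. This gave a log2 fold change of 0.37 ± 0.23 (SE, Padj = 0.99 by edgeR), and the interaction of dataset and treatment was 0.38 ± 0.23 (log2, SE, Padj = 0.85 by edgeR).

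Gpx4, which reduces lipid peroxides in membranes, had 12.8 to 16.2 CPM in the kept 2 day vehicle samples (16.2, 12.9 and 12.8 CPM in C02, C04 and C05). Cort samples C01, C03, C06 and C10 had 15.7, 21.6, 16.6 and 13.5 CPM, and C07, C09 and C08 had 20.04, 33.7 and 21.1 CPM. The groups overlapped, with a log2 fold change of 0.28 ± 0.44 (SE, Padj = 0.97 by edgeR). Counts at 4 weeks were 1 to 48, with 4.73, 1.21 and 2.24 CPM in vehicle samples C02, C03 and C04, 9.90, 2.38, 7.73 and 4.61 CPM in Cort samples C07 to C10, and 0.918, 6.71 and 2.20 CPM in C01, C05 and C06. The groups overlapped, and the fitted difference was smaller than its error (log2 1.15 ± 1.42 SE, Padj = 0.99 by edgeR). Of the stretches of 50 bases in Gpx4 transcripts, the length of the reads, 34.7% also occur in transcripts of other genes, Gpx4-ps2 among them, so its counts depend on how such reads were assigned.

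Txnrd1, the cytosolic thioredoxin reductase, was at 68.2, 73.9 and 65.5 CPM in the 2 day vehicle samples C02, C04 and C05, at 79.4, 65.3, 32.0 and 74.0 CPM in Cort samples C01, C03, C06 and C10, and at 66.2, 49.6 and 51.2 CPM in C07, C09 and C08. Cort sample C06 was the lowest of the 10, and the others of its group lay at or near the vehicle samples. The log2 fold change was -0.14 ± 0.28 (SE, Padj = 0.97 by edgeR). At 4 weeks vehicle samples C02, C03 and C04 ranged widely (88.3, 28.1 and 4.48 CPM), Cort samples C07 to C10 less so (32.0, 39.5, 52.1 and 51.6 CPM), and C01, C05 and C06 had 23.9, 13.8 and 74.3 CPM. Its log2 fold change was 0.11 ± 0.79 (SE, Padj = 0.99 by edgeR).

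Txnrd2, its mitochondrial counterpart, had the lowest mean of the 10 per exon length, without being separated from Scly beyond the spread between samples. At 2 days vehicle samples C02, C04 and C05 had 3.73, 9.48 and 1.42 CPM, Cort samples C01, C03, C06 and C10 had 5.29, 1.35, 2.86 and 6.36 CPM, and C07, C09 and C08 had 2.02, 10.6 and 2.05 CPM, from 4 to 44 counts. At 4 weeks 6 of the 10 samples were at or under 3 counts: vehicle samples C01, C02 and C05 and Cort samples C06, C07 and C10. The others were vehicle samples C03 and C04 (5.23 and 17.9 CPM) and Cort samples C08 and C09 (20.5 and 8.25 CPM), so each group held both samples at the floor and samples well above it. For Txnrd2 the log2 fold change was -0.29 ± 0.88 (SE, Padj = 0.98 by edgeR) at 2 days and -0.10 ± 1.66 (SE, Padj = 0.998) at 4 weeks.

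Levels of different genes were set side by side per kb of merged exon, as the mean over all 10 samples of a dataset. At 2 days Gpx3 stood first with 398 ± 44.4 CPM per kb (SD, n = 10), above Sepp1 (200.4 ± 58.6) in 10 of 10 samples. Gpx1 followed with 169 ± 52.6 CPM per kb and was lower than Sepp1 in 8 of 10 samples, so these neighbours were not separated beyond their spread. Next came a group from 12.5 to 8.82 CPM per kb, in the order Sephs2, Gpx4, Lrp8 and Txnrd1, in which each was higher than the next in 4 to 8 of 10 samples and the order was not resolved. The group lay 13.5-fold below Gpx1, and Gpx1 was higher than Sephs2 in 10 of 10 samples. Secisbp2 (2.33), Scly (1.81) and Txnrd2 (1.03 CPM per kb) were the lowest, and their order was not resolved either.

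In the 4 week dataset Gpx3 (280.2 ± 88.6 CPM per kb) and Sepp1 (167 ± 39.4) again led, with Gpx3 higher in 8 of 10 samples. Gpx1 stood at 49.0 ± 22.4 CPM per kb, 3.4-fold below Sepp1 and lower in 10 of 10 samples. The 7 others had means from 8.09 (Lrp8) to 1.20 CPM per kb (Txnrd2), and no neighbours among them were separated in every sample. Gpx1 was thus closer to Sepp1 at 2 days than at 4 weeks, a difference between datasets that were prepared and sequenced apart and that was not tested.

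**Figure D4:**
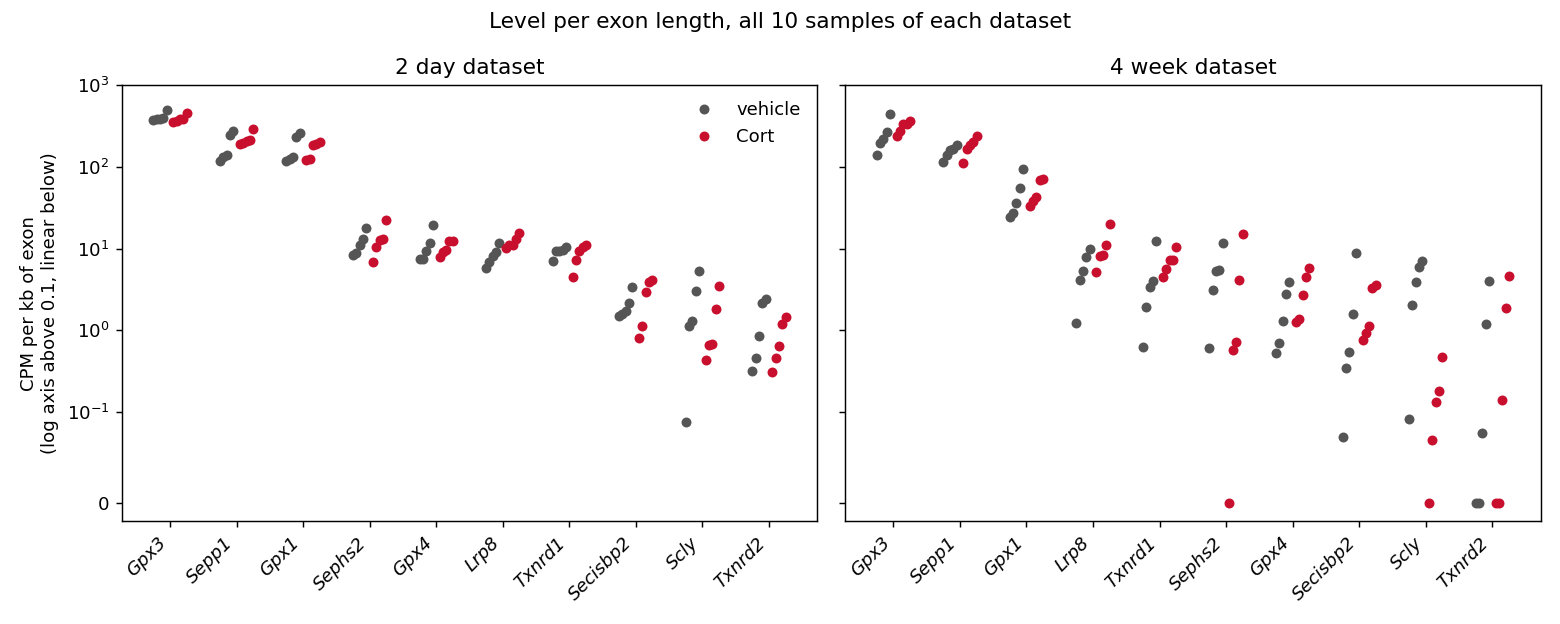
CPM per kb of merged exon for each of the 10 genes, ordered by mean over the 10 samples, in the 2 day dataset (left) and the 4 week dataset (right), with vehicle in grey and Cort in red. The axis is logarithmic above 0.1 and linear below, and points on the lowest tick have 0 counts. Gpx3, Sepp1 and Gpx1 stand above the other genes in both datasets, by at least 13.5-fold at 2 days and 6.1-fold at 4 weeks between the means of Gpx1 and the next gene.

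Beyond the 10 genes, 16 of 17 listed other selenoproteins had a row in the count tables, and 0 of the 13 tested at 2 days and 0 of the 12 tested at 4 weeks were called by edgeR. Unadjusted p was below 0.05 for 1 of them at 2 days and for 0 at 4 weeks, beside 5.97% and 4.91% of all genes tested, of which 0.065% and 0.0446% were called. Their median log2 fold change was -0.02 at 2 days and 0.13 at 4 weeks, beside 0.02 and 0.04 over all genes tested. The largest at 2 days was Dio2, the deiodinase that activates thyroid hormone, with 22.1, 28.3 and 55.2 CPM as the lowest, middle and highest of 3 vehicle samples and 50.7 to 111 CPM in 4 Cort samples (log2 fold change 1.36 ± 0.33 SE, Padj = 0.44 by edgeR and 0.037 by DESeq2). Over all 10 samples that of Dio2 was 0.62 ± 0.44 (SE, Padj = 0.98 by edgeR), and at 4 weeks with 7 samples it was 0.05 ± 0.54 (SE, Padj = 0.99). The smallest at 2 days was Txnrd3, another thioredoxin reductase, at -0.37 ± 0.90 (SE). At 4 weeks the largest was Sepn1 (selenoprotein N), at 0.70 ± 0.96, and the smallest Msrb1, a methionine sulfoxide reductase, at -1.21 ± 1.60 (log2, SE).

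Of 8 genes of the selenocysteine machinery and of selenium handling, 0 of the 8 tested at 2 days and 0 of the 6 tested at 4 weeks were called by edgeR, and 0 had an unadjusted p below 0.05 in either. Of all genes tested 0.065% and 0.0446% were called, and 5.97% and 4.91% had an unadjusted p below 0.05. The median log2 fold change of the list was 0.17 at 2 days and 0.60 at 4 weeks, beside 0.02 and 0.04 over all genes tested. Sepsecs, the last enzyme in selenocysteine synthesis, had the largest value in both datasets (log2 0.90 ± 0.57 SE at 2 days and 2.00 ± 1.22 SE at 4 weeks, Padj = 0.89 and 0.99 by edgeR). Lrp2 (megalin), another receptor for selenoprotein P, had the smallest at 2 days (-1.69 ± 1.13 SE) and Trnau1ap, which binds the selenocysteine tRNA, at 4 weeks (-0.24 ± 1.70 SE). Each of these 3 genes was at or under 3 counts in some samples, so their errors are wide.

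Thioredoxin and glutathione partners, which work with the selenoenzymes but hold no selenium themselves, were tested for 15 of 15 genes in both datasets and 0 were called by edgeR. Unadjusted p was below 0.05 for 3 at 2 days and 2 at 4 weeks, beside 5.97% and 4.91% of all genes, of which 0.065% and 0.0446% were called. The median log2 fold change was 0.08 in both, beside 0.02 and 0.04 over all genes tested. Txnip, the inhibitor of thioredoxin, had the largest value in both (0.70 ± 0.65 SE at 2 days and 1.96 ± 1.29 SE at 4 weeks). The smallest belonged to Gss, glutathione synthetase, at 2 days (-0.77 ± 0.67 SE) and to Slc7a11, the cystine importer, at 4 weeks (-1.24 ± 0.42 SE, Padj = 0.94 by edgeR and 0.23 by DESeq2). Slc7a11 was at 142 to 191 CPM in the 3 vehicle samples and 43.7 to 97.9 CPM in the 4 Cort samples, which did not overlap, as in 6.53% of all genes. With all 10 samples the groups overlapped, at 67.1 to 229 CPM and 7.24 to 97.9 CPM.

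Genes known to be induced by glucocorticoids give a measure of the response in the same samples. Fam107a rose in both datasets, from 546 ± 87.8 to 1067 ± 170 CPM at 2 days (log2 fold change 0.98 ± 0.14 SE, Padj = 0.0048 by edgeR) and from 266 ± 85.3 to 725 ± 91.7 CPM at 4 weeks (1.44 ± 0.25 SE, Padj = 0.097; SD, n = 3 and 4). The 2 day call of Fam107a was lost without vehicle sample C02 (Padj = 0.13 by edgeR) and with all 10 samples (0.26), and the 4 week call without vehicle sample C03 or C04 or Cort sample C08, C09 or C10 (0.42 to 0.73). Fkbp5, a cochaperone of the glucocorticoid receptor, was 1.57 ± 0.35 (SE, Padj = 0.24 by edgeR and 0.0069 by DESeq2) at 2 days and -0.22 ± 0.88 (SE, Padj = 0.99) at 4 weeks. Mt2, a metallothionein, was 0.90 ± 0.25 (SE, Padj = 0.44 by edgeR) and 1.25 ± 0.41 (SE, Padj = 0.92). Tsc22d3 had 0.31 ± 0.38 and 1.38 ± 0.96, and Sgk1 had 0.42 ± 0.43 and 0.36 ± 0.74 (log2 ± SE), with Padj of 0.95 to 0.99 by edgeR.

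The pattern of Sepp1 over the 10 samples of each dataset was compared with that of 5583 genes with at least 10 counts in all 20 samples, ranked by the lower of the 2 Pearson correlations of log2 CPM. As these are the extremes of 5583 genes and the samples share depth and tissue makeup, they are given without a test. Mt2 came first (r = 0.88 at 2 days and 0.74 at 4 weeks, Spearman's rho 0.94 and 0.83), and without the 2 samples farthest from the median of Sepp1, r was 0.74 and 0.62. Zfp24, Rps20 and Gm10076 were also among the nearest, with r of 0.77 to 0.85 at 2 days and 0.71 to 0.73 at 4 weeks. Without the 2 farthest samples their r at 4 weeks was 0.51 (Zfp24), 0.51 (Rps20) and 0.22 (Gm10076), so the likeness of Gm10076 there rested on those samples. None of the other members was among them: Gpx1 had r = 0.72 with Sepp1 at 2 days and -0.16 at 4 weeks, and Lrp8 had 0.51 and -0.35.

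For Lrp8 the 5 nearest genes were Ak3, Cited1, Mlf2, Pomc and Ywhab, with r of 0.73 to 0.85 at 2 days and 0.71 to 0.88 at 4 weeks. Pomc, the melanocortin precursor of arcuate neurons, kept r = 0.72 and 0.65 without the 2 samples farthest from the median of Lrp8. For the other 4 genes r at 4 weeks was between -0.27 and 0.26 without those samples, so their likeness there rested on 2 samples.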

How the data were processed

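RNA-seq of laser-captured arcuate nuclei was deposited by the authors as raw counts per gene for 10 samples per dataset: single-end 50 bp reads, mapped to GRCm38 with Rsubread and assigned with featureCounts. The annotation release and the settings for strand and shared reads are not given in the sources used here. The authors also deposited a mean normalized signal per gene (DESeq2 size factors over 7 samples). This signal was recomputed from the counts within 0.1% for all 16068 and 15430 genes checked, and was otherwise used only to pair gene identifiers with symbols. Their 14 normalized per-sample columns, fold changes, test statistics and p-values were not used.

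R 4.3.3 was used with edgeR 4.0.16 (TMM, filterByExpr on treatment), DESeq2 1.42.0 and limma 3.58.1. Permutation tests ran in scipy 1.17.1 under Python 3.11.15, and their p-values were not adjusted. Standard errors of log2 fold changes were taken from the quasi-likelihood F. Log2 CPM carried a prior count of 2. All fits ran over all genes. Fits within a dataset had no covariate, and the interaction model also held terms for dataset and treatment. The main edgeR fit and DESeq2 were tested on simulated data in the layout of the kept samples, as was voom within a dataset. The other alternatives were not simulated. The members, lists and tests were chosen with earlier results of these data known. Named from the lists are genes called in either dataset, Dio2, and the largest and smallest log2 fold change per list and dataset. The alternatives were DESeq2, upper quartile scaling, 2 other filters, all 10 samples with edgeR or limma voom, and leaving out each sample. One gene near Sepp1 in pattern is not reported here.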

Additional observations from a re-analysis of the deposited data

Results flagged for a closer look

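Dixon's test was applied in 40 groups of 5 samples (10 genes, 2 treatments, 2 datasets). The highest or lowest sample stood apart (gap over range above 0.71) in 5. For independent, normally distributed values chance flags about 1 group in 20. Here the groups share the same 20 samples and some hold values near the floor, so 5 is not read as an excess. Sepp1 in 2 day Cort sample C08 was at 822.1 CPM, against 543.9 to 605.0 CPM in the other 4, and Gpx3 in 2 day vehicle sample C09 was at 899.8 CPM, against 673.4 to 717.9 CPM. Both of these samples were among those the study left out. At 4 weeks, Sephs2 in Cort sample C09 was at 32.47 CPM, against 0 to 8.92 CPM, Secisbp2 in vehicle sample C04 at 40.75 CPM, against 0.338 to 7.34 CPM, and Txnrd1 in vehicle sample C02 at 88.26 CPM, against 4.48 to 28.1 CPM. These 3 samples were among those kept.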

How the results depend on the processing

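Of 328 values under the alternatives (the change of each of the 10 genes in both datasets, and the interaction for Sepp1, Lrp8, Scly and Gpx3 alone), 293 kept their direction and their side of the threshold, 25 changed sign, 8 lost and 2 gained a call. Genes called at 2 days (8) became 52 with DESeq2, 24 without a filter on low counts, 2 with all 10 samples, 4 with limma voom and 1 to 16 with 1 sample left out. At 4 weeks (5) they became 67 with DESeq2, 3 with upper quartile scaling, 9 without a filter, 1 with all 10 samples and 0 to 10 with 1 left out. Selenium genes called at 2 days (1) became 0 with all 10 samples by edgeR or voom and 0 to 1 with 1 sample left out. DESeq2 called 1 at 4 weeks and 1 for the interaction, where edgeR called 0. The cause of these shifts was not tested.

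With all 10 samples by edgeR, log2 fold changes took the opposite sign for Scly (-0.60), Gpx1 (-0.066), Gpx4 (-0.10) and Txnrd3 (0.48) at 2 days, for Sephs2 (-0.40), Gpx1 (0.084), Dio2 (-0.19) and Fkbp5 (0.19) at 4 weeks, and, among those 4 interactions, for that of Lrp8 (0.33). With voom they did so for Txnrd3 at 2 days (0.25), for Sephs2 (-0.53), Secisbp2 (1.10), Dio2 (-0.40), Fkbp5 (1.01) and Trnau1ap (0.10) at 4 weeks, and, among the same 4, for the interaction of Lrp8 (0.032). Interactions of the other 6 genes are not covered by this tally, and those of Gpx1 (-0.56 to 0.16) and Sephs2 (0.36 to -0.54) also turned with all 10 samples, as did Sephs2 (-0.73) and Secisbp2 (-1.49 to 0.85) with voom. Upper quartile scaling turned Dio2 at 4 weeks (-0.024). With 1 sample left out, signs turned at 2 days within -0.035 to 0.0067 (Gpx3), -0.11 to 0.47 (Sephs2), -0.27 to 0.086 (Txnrd1), -0.73 to 0.63 (Txnrd2) and -0.14 to 0.68 (Sgk1). At 4 weeks the ranges were -0.48 to 0.21 (Gpx1), -0.12 to 0.32 (Lrp8), -1.70 to 2.83 (Secisbp2), -1.01 to 1.37 (Sephs2), -0.42 to 1.43 (Txnrd1), -1.44 to 1.38 (Txnrd2), -0.27 to 0.85 (Dio2), -0.77 to 2.24 (Fkbp5), -1.73 to 0.44 (Msrb1), -0.095 to 1.19 (Sepn1), -0.10 to 0.88 (Sgk1) and -1.07 to 0.46 (Trnau1ap). The interaction of Sepp1 ranged from -0.27 to 0.0015.

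No paired analysis was possible because the columns of the count tables carry barcodes, not the replicate numbers of the labels. Depth limits the genes under 10 counts in some samples, Scly and Txnrd2 in both datasets and Sephs2, Gpx4 and Secisbp2 at 4 weeks.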
